A study of Capra hircus with 24 samples.

Results

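Osteopontin is the product of the SPP1 gene, and its transcript was read here in RNA from milk and blood of dairy goats. The array carries 1 probe for it, A_73_P038001, assigned to the cattle transcript NM_174187, out of 43653 probes and 26748 accessions. The gene was chosen by its values on these arrays, a strong signal in milk somatic cells and none in blood cells, so those levels are given as a description and are not tested. Osteopontin is a secreted, acidic and heavily phosphorylated glycoprotein that binds integrins through an arginine-glycine-aspartate motif, and also binds CD44. It is a whey protein of milk, made by the secretory epithelium of the mammary gland, and it is made by macrophages and activated T cells as well. In the goat gene table (RefSeq, assembly ARS1.2) SPP1 lies between PKD2, a cation channel gene, and MEPE and IBSP, which encode further integrin-binding glycoproteins of mineralised tissue. ABCG2, the transporter that moves riboflavin and drugs into milk, lies beyond PKD2.

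RNA came from 8 healthy female goats in lactation 3, with 4 goats from each of 2 breeds. PWI stands for Polish White Improved goats, and PFI for the Polish Fawn Improved ones. Every animal was read as having given 3 sources, by the goat number in the sample titles, for 24 arrays in 6 groups of 4. The sources were somatic cells of milk (MSC), peripheral nuclear blood cells (PNCB) and fat globules of milk (MFG). Fat globules are the secreted lipid droplets that can carry cytoplasm of the cell that made them. The arrays had 2 colours, Cy5 for the goat and Cy3 for a common reference, which was blood cell RNA pooled from 7 healthy goats in lactation 4 (4 PWI, 3 PFI) and taken once that lactation had ended. The dyes were never swapped, so a dye effect cannot be told apart from the sample. The labels give no cell sort for MSC, so fewer cells that make a transcript and less of it per cell cannot be told apart. The files pair probes with accessions and not with symbols, and 0 of the 26748 accessions were in the goat table, so marker genes of the cell types and the genes of the osteopontin pathway were not used here.

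Some arrays stood apart before any result on SPP1. The slope of measured against intended spike-in ratios, as the scanner software gives it, was 0.49 on the MFG array of PWI goat 2 and 0.65 and 0.57 on the PNCB arrays of PWI goats 3 and 4, against 0.76 to 0.89 on the other 21 arrays. In MFG the share of probes with Cy5 well above background was 84.6% in PWI goat 2 and 75.3% in PWI goat 4, against 44.1% to 51.5% in the other 6 goats. Both milk sources were extracted with one kit and blood with another, all MFG arrays were scanned on another day, and each of the 6 groups lay on its own slide, so kit, scan day or slide cannot be told apart from the groups they go with.

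SPP1 was bright in all 16 milk samples and was not well above background in any of the 8 blood samples. In MSC the net Cy5 signal, in scanner units, was 46426, 59887, 35208 and 12984 in PWI goats 1 to 4, and 20301, 39209, 49549 and 10303 in PFI goats 1 to 4. Goat 4 was the lowest of each breed, and the breeds overlapped. In MFG the net Cy5 signal was 9353, 14205, 8995 and 16312 in PWI goats 1 to 4, and 1565, 8521, 10800 and 5774 in PFI goats 1 to 4. PFI goat 1 was the lowest of all milk samples, on the array whose 75th percentile of net Cy5 signal was also the lowest of the 24, at 57.2. In PNCB the net signal lay between -2.43 and 10.2, with a median of 0.68, so no order among the blood samples can be read. The spot carried no outlier flag and was not saturated on any array.

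On the scale of log2 ratios to the blood reference, after background correction and loess, the same probe read 6.14, 6.07, 5.96 and 5.78 in MSC of PWI goats 1 to 4. In MSC of PFI goats 1 to 4 it read 6.25, 6.32, 5.98 and 5.38. The 8 MSC values fell within 0.94 log2 units of each other in this ratio. In the Cy5 channel alone, normalized between arrays by quantiles, the same samples ran from 13.30 to 15.98 on the log2 scale. In MFG the ratio read 7.13, 6.50, 7.08 and 6.99 in PWI goats 1 to 4, and 5.57, 6.99, 6.94 and 6.63 in PFI goats 1 to 4. The MFG of PFI goat 1 lay below 7 of the 8 MSC samples, and the other MFG samples lay above all of them. In PNCB the ratio was -0.30, -0.19, -0.74 and 0.02 in PWI goats 1 to 4, and 0.20, -0.05, -0.34 and -0.02 in PFI goats 1 to 4. With both dyes near background in blood these ratios give no level of SPP1. Their mean was -0.18 here, -0.17 without background correction and -0.63 with median centring in place of loess.

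**Figure D1:**
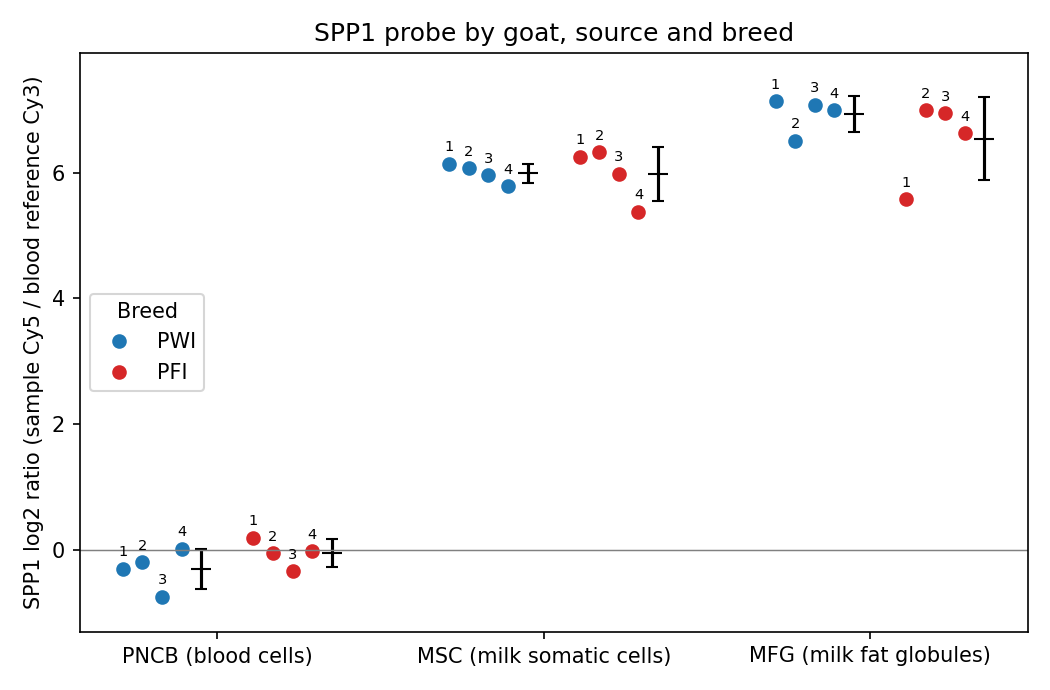
SPP1 log2 ratio of sample (Cy5) to blood reference (Cy3) on each of the 24 arrays. Points are goats with their number, blue PWI and red PFI, and black bars are the mean and SD of 4 goats; all milk points lie between 5.38 and 7.13 and all blood points between -0.74 and 0.20.

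The means over 8 goats were 5.98 ± 0.30 in MSC, 6.73 ± 0.52 in MFG and -0.18 ± 0.29 in PNCB (SD, n = 8 each, log2 ratio). For each blood array the higher of the dimmest signal that was well above background and the probe's own signal was taken. With these blood values SPP1 in the Cy5 channel was 293-fold brighter in MSC and 163-fold brighter in MFG than in PNCB. The measured mean log2 Cy5 signals were 14.19, 13.35 and 5.99 in MSC, MFG and PNCB, after loess and quantile normalization of the average intensities. Taking the higher value hardly moved the blood mean, so these folds are no lower limits for other scales. In ratios after loess the folds over PNCB were 71.5 in MSC and 120 in MFG. Over the 6 scales compared below they ran from 57.9 to 486 in MSC and from 62.8 to 979 in MFG. Being descriptions of the pattern that the gene was picked for, these folds carry no test. The same holds for MFG against the reference, which is blood RNA too. There the mean log2 difference was 6.73 and MFG was higher in 8 of 8 goats, in a comparison that called 32.2% of all tested probes higher and 71.5% in either direction. As the mean of both breed means, the difference was 6.82 when PWI goats 2 and 4 were left out of MFG. It was 6.80 when the 3 arrays with a low slope were left out. The plain mean of the 6 goats left without PWI goats 2 and 4 was 6.72.

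The reference itself read differently at this spot on different arrays, although the same RNA was hybridised to all of them. Cy3 was well above background on 8 of 8 MSC arrays, on 6 of 8 MFG arrays and on 0 of 8 PNCB arrays. Its net signal ran from 32.2 to 216 on MSC arrays, from 4.78 to 94.2 on MFG arrays and from -25.3 to 11.6 on PNCB arrays. Within each milk source Cy3 followed Cy5, a relation that was looked at after the values had been seen and is described with no test. Across the 8 MSC arrays the log2 net signals of both dyes correlated at Pearson r = 0.98 and Spearman rho = 0.98. Across the 8 MFG arrays they correlated at r = 0.92 and rho = 0.98. Without the 2 arrays farthest from the median Cy5 signal, r was 0.94 in MSC and 0.91 in MFG. Both dyes share the spot and the array, and 4 arrays per slide are too few for a value within slides.

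**Figure D2:**
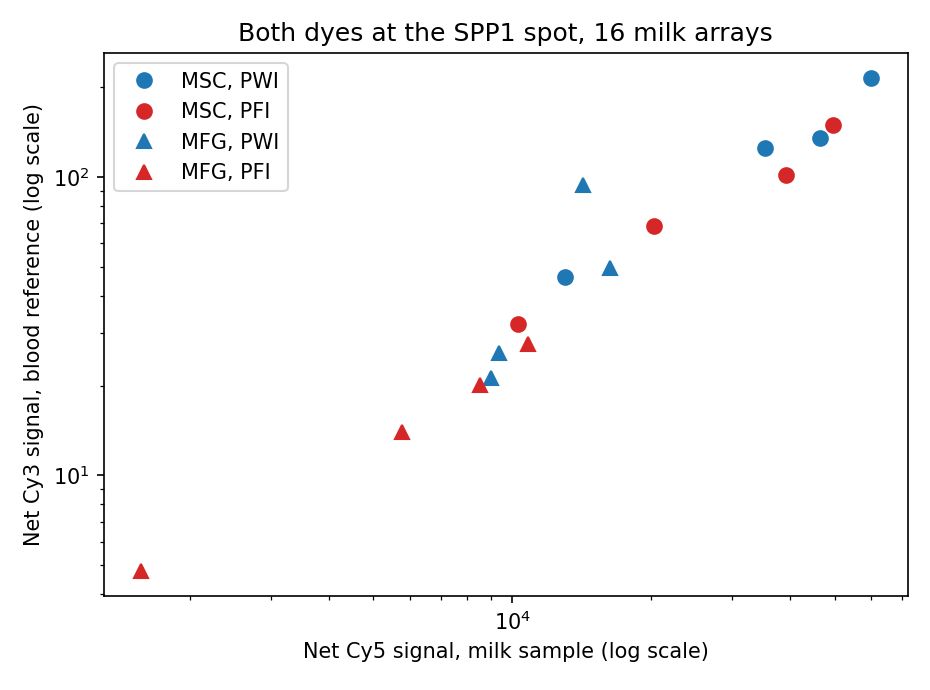
Net Cy3 (blood reference) against net Cy5 (milk sample) at the SPP1 spot on the 16 milk arrays, both axes logarithmic. Circles are MSC and triangles MFG, blue PWI and red PFI; Cy3 rises with Cy5 from 4.78 at a Cy5 of 1565 to 216 at a Cy5 of 59887.

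As a share of Cy5, the Cy3 net signal at SPP1 was 0.32% ± 0.04 on MSC arrays and 0.31% ± 0.14 on MFG arrays (SD, n = 8 each). The array of MFG from PWI goat 2 had 0.66%, and the other 15 milk arrays had 0.24% to 0.36%. Other probes that had neither dye well above background on any blood array, and a net Cy5 of at least 5000 on a milk array, numbered 8 to 17 per MSC array and 9 to 14 per MFG array. Their median share of Cy3 in Cy5 was 0.28% to 0.57% over the MSC arrays and 0.37% to 0.66% over the MFG arrays. SPP1 lay below that median on 6 of 8 MSC and 7 of 8 MFG arrays. On milk arrays the denominator of the SPP1 ratio thus moved with Cy5 on the same spot. The part of this in the difference between MFG and MSC was not tested.

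Which milk source read higher at SPP1 depended on the scale. In ratios after loess, MFG exceeded MSC in 7 of 8 goats, by a mean of 0.75 ± 0.64 on the log2 scale (SD, n = 8 goats). Of the 11555 tested probes with a value on all 24 arrays, 17.4% had MFG above MSC in at least 7 of 8 goats. The milk sources overlapped at SPP1, and 0.952% of the same 11555 probes had every MFG array above every MSC array. The difference ran from 0.44 in PWI goat 2 to 1.25 in PFI goat 4 in those 7 goats and was -0.68 in PFI goat 1. With outlier spots kept in the background fit the mean difference was 0.12 ± 1.50, with MFG higher in 4 of 8 goats. In the scanner's processed ratios MFG was higher by 2.26 ± 0.72 in 8 of 8 goats. With ratios centred on the median of each array in place of loess, the mean difference was -0.91 ± 0.85, with MFG higher in 1 of 8 goats. In the Cy5 channel alone, normalized between arrays by quantiles, it was -1.36 ± 0.98, with MFG again higher in 1 of 8 goats. Over all tested probes the median difference between MFG and MSC was -0.02 with loess, -0.21 with processed ratios, -0.61 with median centring and -0.02 with Cy5 alone. Relative to that median SPP1 stood at 0.77, 2.47, -0.30 and -1.34 on these 4 scales, so its order between the milk sources changes sign with the scale also when the shift of all probes is taken off. Since MSC values chose the gene, no test was made of this difference.

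**Figure D3:**
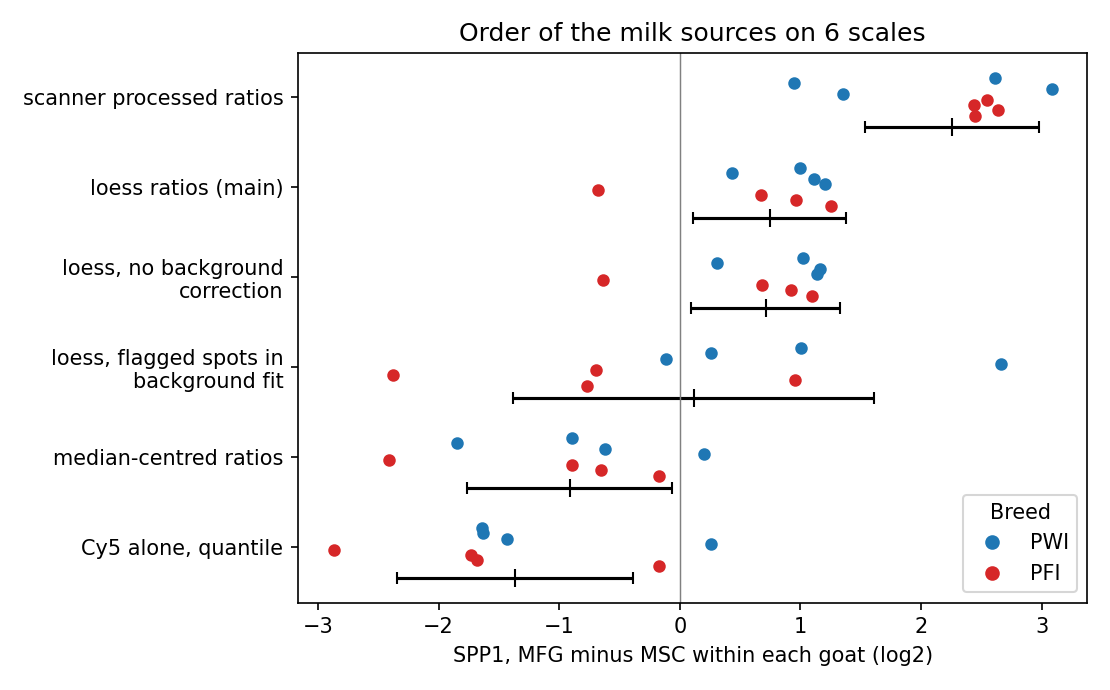
SPP1 in MFG minus SPP1 in MSC of the same goat, in log2 units, on 6 scales made from the same arrays. Points are goats (blue PWI, red PFI) and black bars are the mean and SD of 8 goats; the mean runs from 2.26 with processed ratios to -1.36 with Cy5 alone.

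Goats that read high at SPP1 in one milk source were not seen to read high in the other. Over the 8 goats the MSC and MFG log2 ratios gave Pearson r = -0.16 (exact permutation p = 0.653, adjusted over 3 relations 0.653) and Spearman rho = 0.02 (exact permutation p = 0.977, adjusted 0.977), both two-sided. The 3 relations in the adjustment are this and those of Cy3 with Cy5 in MSC and in MFG, whose own p is not given. Without the 2 goats farthest from the median MSC value r of MSC with MFG was -0.66. Deviations from the breed means gave r = -0.18, and 4 goats per breed are too few for a value within breeds. Without PFI goat 1, whose MFG value was the lowest, r was 0.41 (exact permutation p = 0.367), and on 3 other scales with all 8 goats it was 0.10 to 0.41, so the sign rests on that goat and on the scale. Goats carry the same number in each source, and that number is also the position of the array on its slide. In MSC the goats numbered 4 were the lowest of their breed in the ratio as in the signal, and goat and position cannot be told apart there.

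The breeds were compared within each source, a contrast the choice of SPP1 did not use. In MSC the mean log2 ratio was 5.99 ± 0.16 in PWI and 5.98 ± 0.43 in PFI (SD, n = 4 each), a difference of 0.01 with a 95% interval of -0.45 to 0.47 (limma adjusted p = 0.999; exact permutation p = 1). The PWI goats all lay inside the range of the PFI goats. The breeds did not overlap at 3.14% of the 22407 tested probes with a value on all 8 MSC arrays. In MFG it was 6.92 ± 0.29 in PWI and 6.53 ± 0.66 in PFI, a difference of 0.39 with an interval of -0.32 to 1.10 (limma adjusted p = 0.579; exact permutation p = 0.314). The breeds overlapped here too, while 7.39% of the 22231 tested probes with a value on all 8 MFG arrays had no overlap. Without PFI goat 1 the difference at SPP1 was 0.07. In PNCB, where the probe lay at background, the ratio was -0.30 ± 0.32 in PWI and -0.05 ± 0.22 in PFI (limma adjusted p = 0.972; exact permutation p = 0.286). That difference of -0.25 is between signals at background and is no difference of SPP1 levels. The breeds overlapped, against no overlap at 2.41% of the 16902 tested probes with a value on all 8 PNCB arrays. The exact tests are two-sided and can reach no less than 0.0286 with 4 goats against 4. Adjusted over the 3 sources they gave 1 in MSC and 0.471 in both MFG and PNCB.

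SPP1 thus passed in none of the 3 sources, and few probes did. Limma called 0% of tested probes between breeds in MSC (1200 of 27410 had an unadjusted p under 0.05), 0.0109% in PNCB and 0.0146% in MFG. With the 3 sources averaged in each goat, the breed difference at SPP1 was 0.05 (SE 0.11, 95% interval -0.20 to 0.30, limma adjusted p = 0.956; exact permutation p = 0.686), in a comparison that called 0.00366% of probes. The breed difference of SPP1 was not shown to differ between sources (F = 1.62, limma adjusted p = 0.773), in a test that called 0.0146% of probes. The PNCB ratio, which lay at background, enters both the goat mean and the interaction test. Neither result is therefore a measure of SPP1 levels alone, and the interval of the goat mean sets no limit for milk. The sign of the breed difference was not stable, with -0.54 in MSC when outlier spots stayed in the background fit and -0.76 in MFG with the scanner's processed ratios, neither past the threshold. In MFG it was 1.13 (95% interval -0.42 to 2.68) when outlier spots stayed in the background fit and 0.97 (-0.08 to 2.03) with Cy5 alone. In MSC the interval reached down to -1.46 in the first of these settings and up to 1.77 in the second, so the limits on a breed difference hold for one scale at a time. Because PWI and PFI never shared a slide, a breed difference and a slide difference cannot be told apart.

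**Figure D4:**
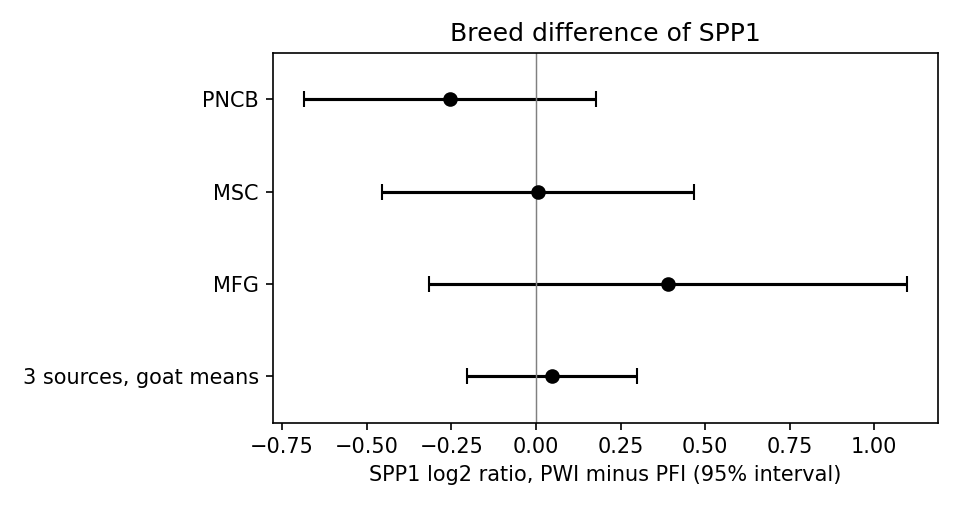
Difference of the SPP1 log2 ratio between breeds, PWI minus PFI, in each source and in goat means over the 3 sources. Points are limma estimates and bars their 95% intervals, and all 4 intervals include 0. PNCB lay at background and also enters the goat means.

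In ratios after loess, the SD between goats within breeds was 0.32 in MSC. Over the 22407 tested probes with a value on all 8 MSC arrays the median was 0.20, and 76.3% had a smaller SD. In MFG the SD at SPP1 was 0.51, against a median of 0.24 over 22231 such probes, with 87.7% of them smaller. Each of these rests on 1 goat. Without PFI goat 4 the SD in MSC was 0.17 against a median of 0.19, and 41.4% of probes had a smaller one. Without PFI goat 1 the SD in MFG was 0.26 against a median of 0.24, and 53.7% of probes had a smaller one. In PNCB it was 0.27 against a median of 0.31, which at background describes the noise of the spot and not the goats.

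The 5 accessions whose ratios followed those of SPP1 most closely over the 24 arrays were taken from 11554 probes of 9167 other accessions measured on every array. Probe A_73_P245306 of NM_001012669 had the highest correlation, at r = 0.99. Its log2 ratio was 4.91 ± 0.36 in MSC, 5.72 ± 0.49 in MFG and 0.35 ± 0.36 in PNCB (SD, n = 8 each), and it was well above background on all blood arrays. The next were NM_001024569 (r = 0.99), NM_001075120 (r = 0.98), TC483248 (r = 0.98) and NM_001242573 (r = 0.98). Each is given by its probe with the highest r, out of 5 tested probes at NM_001012669, 2 at NM_001024569 and 3 at NM_001075120, and the remaining probes are not described here. The probe of NM_001024569, like that of SPP1, was not well above background on any of the 8 blood arrays. That of NM_001075120 was well above it on 3 of 8, and those of TC483248 and NM_001242573 on all 8. These correlations are mostly the step between blood and milk that all points share, and 188 probes (1.63%) had an r above 0.9. After the mean of each group was taken off, r with SPP1 was 0.70 at NM_001012669 and between -0.17 and 0.15 at the other four. These r include the 8 blood arrays, where the SPP1 ratio gives no level. MFG of PFI goat 1 was the lowest MFG sample at both SPP1 (5.57) and NM_001012669 (4.92), and r without it is not given. Accessions are given without gene names because the files hold none.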

How the data were processed

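The authors' deposited scanner files hold intensity values per spot in Cy5 and Cy3, with local background and no normalization. The file headers name Agilent Feature Extraction 10.7.3.1. Besides these there are, per the file headers, processed intensities (background subtracted, dye normalized), log10 ratios and flags of 0 or 1, another kind of column. The deposited table of log10 ratios equals the scanner's (largest difference 0 over 45220 spots). The array was designed on cattle (bosTau6, UMD 3.1) and a goat mismatch can lower a signal. The sequence of the probe is not given in the sources used here.

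In R 4.3.3 with limma 3.58.1, outlier-flagged spots were left out, medians were corrected with normexp (offset 50) and ratios normalized by loess within arrays, with control spots at no weight. Tested were 27411 probes with Cy5 well above background on all 4 arrays of a group. Limma fits covered all of these, with Benjamini-Hochberg adjustment at 0.05. They were also run on simulated data, with changes larger than any breed difference of SPP1 given here. That run does not show whether differences as small as those at SPP1 would be found. Intervals are at 95%. MFG against the reference was fitted too, and is given without its p because the choice of SPP1 used blood. Replicates are goats. Named accessions are the 5 with the highest correlation with SPP1, each by its tested probe with the highest r. The member, the lists and the tests were chosen with earlier results of these data known.

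The same goat number in a title was read as the same goat in the 3 sources, since the design text gives 4 goats a breed and 3 sources. Deviations of the arrays of one goat correlated over 0.1 in 2 of 8 goats between MSC and MFG, 5 of 8 between MSC and PNCB and 2 of 8 between PNCB and MFG. In this order r ran from -0.27 to 0.23, from -0.06 to 0.32 and from -0.16 to 0.27. These values do not settle the pairing, which rests on the titles and the design text. Precision is limited by the number of arrays.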

Additional observations from a re-analysis of the deposited data

Results flagged for a closer look

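In 33 groups of 4 or 8 values at the SPP1 spot, 6 held a value far from the rest, where chance gives about 1.65 and groups by breed sit inside those by source. The log2 ratio of 5.57 in MFG of PFI goat 1 lay below the next, at 6.50, with the highest at 7.13. Cy3 was 0.66% of Cy5 in MFG of PWI goat 2, against 0.24% to 0.31% in the other 7 MFG samples and 0.24% to 0.30% in the other 3 of PWI. It was 0.29% in MSC of PWI goat 1, just below 0.36% in the other 3. At background, PNCB of PWI goat 4 had a net Cy3 signal of -25.3 where the other 7 had -0.69 to 11.6, and PNCB of PFI goat 3 had 6.80 where the other 3 of PFI had -0.69 to 0.40.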

How the results depend on the processing

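MFG minus reference at SPP1, a description, was 5.83 to 9.03 (log2) under 10 alternatives. With a goat left out it was 6.65 to 6.89, as the mean of both breed means. No breed comparison of SPP1, nor its interaction with source, passed under any alternative run; adjusted p ranged from 0.496 to 1. Signs of the breed differences turned. In MSC the difference was -0.24 with processed signals, -0.00055 without background correction and -0.54 with outlier spots kept in the background fit. With processed signals it was also -0.76 in MFG and -0.59 over the 3 sources. With each goat left out it ran from -0.20 to 0.12 in MSC, from -0.36 to -0.11 in PNCB, from 0.07 to 0.54 in MFG and from -0.0055 to 0.14 over the 3 sources, and F for the interaction from 0.47 to 2.48.

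MFG minus MSC was 2.26 with processed signals, -0.91 with median centring, -1.36 with Cy5 alone and 0.12 with outlier spots kept in the fit, and 0.67 to 0.95 with a goat left out. MSC minus PNCB was 6.16, and 7.68, 8.01 and 8.92 on these 3 scales. MFG minus PNCB was 6.91, and 9.93 with processed signals and 5.97 with outlier spots kept in the fit. With a goat left out they ran from 6.08 to 6.27 and from 6.78 to 7.12. The correlation of MSC with MFG over goats was 0.41 with processed signals, 0.10 with median centring and 0.38 with Cy5 alone, and -0.40 to 0.41 with a goat left out; that of Cy3 with Cy5 was then 0.97 to 0.99 in MSC and 0.89 to 0.99 in MFG. The causes were not tested.

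With the goat as a replicate block the interaction gave F = 1.42 (limma adjusted p = 0.762), and with the goat as a random replicate block MFG against reference stayed at 6.73. Across breeds the goats share a number only; with that number as a replicate block the breed difference was 0.01 (SE 0.13) in MSC, -0.25 (SE 0.19) in PNCB and 0.39 (SE 0.32) in MFG, and MSC deviations at the same number correlated from -0.16 to 0.58 over the tested probes. The block changed no call of SPP1. Calls over all probes in the interaction were 4, against 62 with array weights and 22 without the low-slope arrays. Averaging several probes could not be run with 1 probe, and slide cannot be a block for breed. Leaving out arrays that stood apart was chosen after seeing the data. Blood signals at background limit every fold over blood.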
